A study of Mus musculus with 18 samples.

Results

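Spleen red pulp macrophages were compared with 6 other tissue macrophage populations of the mouse. The members were the 2 libraries of spleen red pulp macrophages, of 18 libraries in the series. They were set against the 12 libraries of microglia, peritoneal macrophages, Kupffer cells of the liver, lung macrophages, and macrophages of the small and the large intestine, 2 libraries each. Every population came from C57BL/6 mice, with no treatment or genetic change given in the labels, and no age. Spleen, Kupffer and lung macrophages were prepared in experiment 2 together with bone marrow monocytes and neutrophils, and the other 4 macrophage populations in experiment 1. The design asked how the transcriptomes of macrophages differ between tissues. For each gene the pooled comparison is the spleen against the unweighted mean of the 6 populations, and the comparison within experiment 2 is the spleen against the mean of Kupffer cells and lung macrophages. No population was prepared in both experiments, so for the 4 populations of experiment 1 tissue and experiment cannot be told apart, and counts within experiment 2 are given beside the pooled ones for each gene list described.

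The red pulp is the part of the spleen in which blood percolates through an open meshwork lined by macrophages. These macrophages engulf aged and damaged erythrocytes, break down the heme of their haemoglobin with heme oxygenase and return the iron to plasma transferrin through the exporter ferroportin. The transcription factor Spi-C is required for their development in the mouse, and heme induces its gene in monocytes by relieving repression by Bach1. Kupffer cells of the liver share the task of clearing erythrocytes.

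Levels are the deposited normalised read counts per gene, called normalised reads. A log2 fold change is the difference of log2(level + 1.11) with its standard error, from limma fitted to all 18 libraries, with p-values adjusted by the Benjamini-Hochberg method over 11998 genes. Genes rose or fell where the adjusted p was below 0.05 and the log2 fold change at least 1 in size. Where a level was near 0 the log2 fold change depends on the added 1.11, and no fold is given where all libraries of one side were listed at 0. The libraries held 588172 to 1580371 reads in genes. The second spleen library was the shallowest, and 1 read was worth 1.00 and 1.46 normalised reads in the 2 spleen libraries. Nothing in the labels says whether the 2 libraries of a population came from separate mice, so the p-values measure the spread between these libraries alone. In sorted bulk samples fewer cells of a type and less RNA per cell cannot be told apart.

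The 4 genes that mark red pulp macrophages were each higher in both spleen libraries than in any of the 12 others. Spic, which encodes the Ets-family factor Spi-C, stood at 692 and 651 normalised reads in the spleen, and at 0, 2.44 and 167 as lowest, median and highest of the other 12. The 2 highest of those were the Kupffer libraries, at 152 and 167, and the spleen and Kupffer values did not overlap. Against Kupffer cells alone the log2 fold change of Spic was 2.07 ± 0.69, with an adjusted p of 0.0916 (limma), so this difference did not pass the test, whereas within experiment 2 it rose by 4.98 ± 0.60 (limma, adjusted p = 2.56e-05). Vcam1, an adhesion molecule that binds the integrin VLA-4, stood at 1571 and 1183 in the spleen and at 155 in the highest other library, again a Kupffer one. Its log2 fold change within experiment 2 was 5.70 ± 0.43 and that against Kupffer cells alone 3.17 ± 0.49 (limma, adjusted p = 1.58e-07 and 0.000519). Hmox1, the inducible heme oxygenase, stood at 4000 and 4594 normalised reads, and at 31.0, 106 and 1033 as lowest, median and highest of the others. Within experiment 2 Hmox1 rose by 3.73 ± 0.31 (limma, adjusted p = 4.27e-07). Itgad, the integrin alpha D chain, stood at 260 and 295 in the spleen and at no more than 8.32 elsewhere. All 4 markers rose in both comparisons under every alternative processing tried. Among the macrophages Itgad reached the highest filter on low values tried in the spleen alone, so its levels are a description. The label of the libraries and the levels of their markers go together. Of a wider list of 16 red pulp genes, 15 rose in the pooled comparison and 12 within experiment 2, where over all genes tested 9.66% and 5.74% rose. The median log2 fold change of the list was 3.63 and 2.78, against -0.02 and 0.02 over all genes. Under every alternative 12 and 7 of the 16 rose. The exception in the pooled comparison was Adgre1, the gene of the F4/80 antigen, at 470 and 390 in the spleen and 105 to 1535 in the others.

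**Figure D1:**
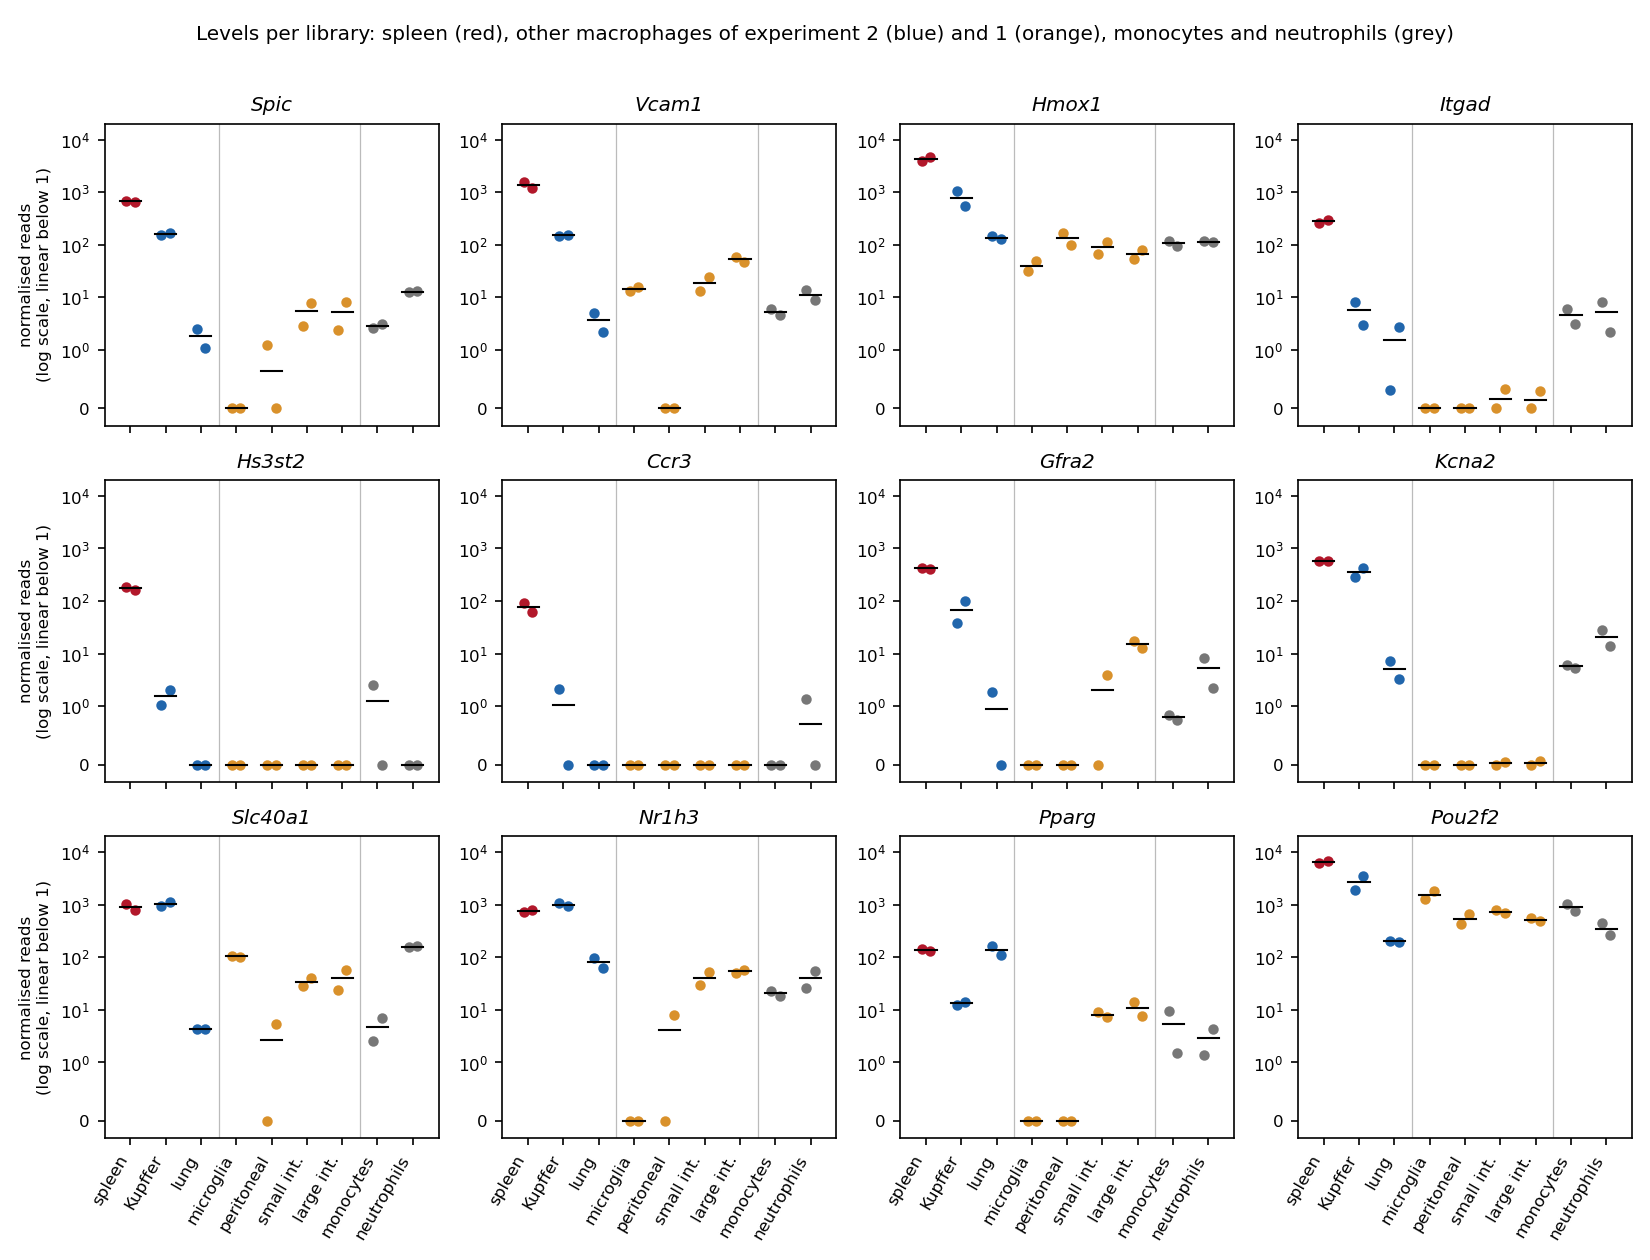
Levels of 12 genes in each of the 18 libraries, as normalised reads on a log axis that is linear below 1; points are libraries and bars the mean of 2. The spleen points of Spic, Vcam1, Hmox1, Itgad, Hs3st2, Ccr3, Gfra2, Kcna2 and Pou2f2 lie above those of the other macrophages, while for Slc40a1 and Nr1h3 they lie among or below the Kupffer points and for Pparg among the lung points.

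A group of genes was at or near 0 in all 6 other populations. Hs3st2, a heparan sulfate 3-O-sulfotransferase, was listed at 188 and 165 normalised reads in the spleen, at 1.04 and 2.02 in Kupffer cells and at 0 in the 10 remaining macrophage libraries. Ccr3, the receptor for eotaxins, was listed at 92.7 and 61.4 in the spleen, at 2.08 in 1 Kupffer library and at 0 in the 11 others. Akr1b7, an aldo-keto reductase, stood at 117 and 86.2 against a highest other value of 3.32. In these 3 genes no spleen value came near any other macrophage library. The extracellular matrix proteins Coch, at 99.7 and 114, and Sned1, at 132 and 171, reached 2.91 and 2.52 in the highest other library. Tenm4, a teneurin, was at 45.8 and 123 against at most 3.12, and Ubd, a ubiquitin-like modifier, at 50.8 and 46.7 against at most 3.12. These genes were named for their rank in the comparisons and among the macrophages reached the filter on low values in the spleen alone, so their levels are a description and no test is given. Ccr3 is also a gene of eosinophils and basophils. Of 7 tested markers of mast cells, basophils and eosinophils, which include Ccr3, Ear2 rose in the pooled comparison, where 9.66% of all genes rose. Within experiment 2, 3 fell, Ear2 among them, where 4.87% of all genes fell. For Ccr3 the levels alone are given. Cpa3, Fcer1a, Kit, Gata2, Epx, Il5ra and Tpsb2 were listed at 0 in both spleen libraries.

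Other genes were highest in the spleen and next highest in Kupffer cells. Gfra2, a receptor subunit for neurturin, stood at 427 and 409 in the spleen, at 37.4 and 99.9 in Kupffer cells and at 0 to 17.7 in the remaining 10 macrophage libraries. Slc45a3, a solute carrier, stood at 298 and 304 in the spleen and at 23.9 and 38.4 in Kupffer cells. Kcna2, a voltage-gated potassium channel, stood at 589 and 590 in the spleen, at 286 and 431 in Kupffer cells and below 8 in the rest. For each of these genes the spleen and Kupffer values did not overlap. Fcna, which encodes the lectin ficolin A, was at 1191 and 1473 in the spleen and at 781 and 456 in Kupffer cells. Against Kupffer cells alone Slc45a3 rose (3.26 ± 0.69, limma adjusted p = 0.00671), whereas the difference was 2.75 ± 0.83 for Gfra2, 0.74 ± 0.64 for Kcna2 and 1.15 ± 0.58 for Fcna (adjusted p = 0.0594, 0.618 and 0.317). Treml4, a receptor of the TREM family, was at 478 and 390 in the spleen and at 231 and 229 in Kupffer cells, and rose in both comparisons. Its log2 fold change within experiment 2 was 2.87 ± 0.49 (limma, adjusted p = 0.000859). That value is against the mean of Kupffer cells and lung macrophages, and not the difference from Kupffer cells alone. Pla2g2d, a secreted phospholipase, was at 110 and 76.0 in the spleen, at 0 in both Kupffer libraries, at no more than 1.11 in the lung, and highest in the small intestine with a mean of 387. It rose in both comparisons.

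Over all genes, 1159 rose and 895 fell in the pooled comparison (9.66% and 7.46% of those tested), and 689 rose and 584 fell within experiment 2 (5.74% and 4.87%). Both spleen libraries lay above all 12 others for 739 genes (6.16%), of which 562 rose (4.68% of those tested), and below all 12 for 299 genes (2.49%), of which 221 fell (1.84%). Among the 562 genes the next highest population was Kupffer cells for 230 and lung macrophages for 113. For 88 of them the mean of monocytes or neutrophils was above that of the spleen. Taken singly, the spleen differed in 736 genes from Kupffer cells (6.13%), 1937 from the small intestine (16.1%), 2063 from the lung (17.2%), 2370 from the large intestine (19.8%), 2932 from peritoneal macrophages (24.4%) and 3223 from microglia (26.9%). These counts rest on both spleen libraries: without spleen replicate 1 the pooled comparison called 1132 genes and without replicate 2 846, and within experiment 2 the counts were 532 and 504. With voom weights, another way for limma to model the spread, 1493 rose and 683 fell in the pooled comparison, a share of 68.6% higher in place of 56.4%, and 65.7% in place of 54.1% within experiment 2.

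Transcripts of other cells were present in the spleen libraries, and those of erythroid cells stood out. Of 17 erythroid marker genes tested, 16 rose in both comparisons, where 9.66% and 5.74% of all genes rose. Under every alternative 13 and 5 of them rose. Their summed level was 31124 to 42290 normalised reads in the spleen, 11758 to 23383 in Kupffer cells, 820 to 4371 in the lung and 31.9 in the lowest other macrophage library, so the spleen libraries lay above the other 12. Slc4a1, the anion exchanger of the erythrocyte membrane, was at 539 and 438 in the spleen and at 40.4 in the highest other library. Klf1, a transcription factor of erythroid precursors, was at 48.8 and 30.7 against at most 4.16. Alas2, the erythroid enzyme that begins heme synthesis, was at 235 and 188 against at most 53.5. Kel, the Kell blood group protein, was at 21.9 and 14.6 and listed at 0 in all 12. Among the macrophages Klf1 and Kel reached the filter on low values in the spleen alone. Such genes are counted among the 16, so that count is a description. Hba-a1 and Hba-a2 share all their values in the table, so the 16 genes hold fewer independent measurements, and how reads were split between Hbb-bs and Hbb-bt, which are near-identical copies, is uncertain. Erythroid transcripts were also high outside macrophages, with a summed level of 11488 to 16950 in monocytes and 15273 to 49911 in neutrophils. In those neutrophil libraries Hmox1 was 114 ± 2.58 (SD, n = 2), Slc40a1 161 ± 2.96 and Spic 12.8 ± 0.556. Whether erythroid transcripts bear on the spleen levels of these 3 genes was not tested.

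Beside the counts that follow, 9.66% of all genes rose and 7.46% fell in the pooled comparison, and 5.74% and 4.87% within experiment 2. Neutrophil markers rose for 12 of 20 tested in the pooled comparison and for none within experiment 2. Their summed level was 2095 to 3701 in the spleen, 420 to 2616 in Kupffer cells, 6676 to 12199 in the lung and 291029 to 355836 in neutrophils. Ltf, or lactoferrin, was at 297 and 519 in the spleen, between 39.4 and 449 in Kupffer and lung libraries and at no more than 3.78 in the 8 libraries of experiment 1. B cell markers rose for 8 of 13 genes in the pooled comparison and 3 within experiment 2, with a summed level of 506 to 653 in the spleen and 23.3 to 1492 in the other macrophages. The B cell receptor component Cd79a was at 24.9 and 54.1 in the spleen. T and NK cell markers rose for 3 of 12 in the pooled comparison, whereas 1 rose and 3 fell within experiment 2, and Cd3e, Klrb1c and Gzmb were listed at 0 in both spleen libraries. Dendritic cell markers rose for 1 of 12 and fell for 4, with Flt3, Clec9a and Cd209a at 0, and 1 rose and none fell within experiment 2. Platelet markers rose for 5 of 11 and fell for 1, and none passed within experiment 2. Monocyte markers rose for 5 of 16 and fell for 1, at a summed level of 796 to 949, and within experiment 2 the count was 1 and 0. Endothelial and stromal markers rose for 6 of 20 and fell for 3, whereas 3 rose and 5 fell within experiment 2, with Tie1, Emcn and Lyve1 listed at 0. Of 7 markers of marginal zone macrophages, which lie at the border of the white pulp, 2 rose and 1 fell, whereas 0 rose and 2 fell within experiment 2, with Cd209b at 0. The part of these cells in the other results was not tested.

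**Figure D2:**
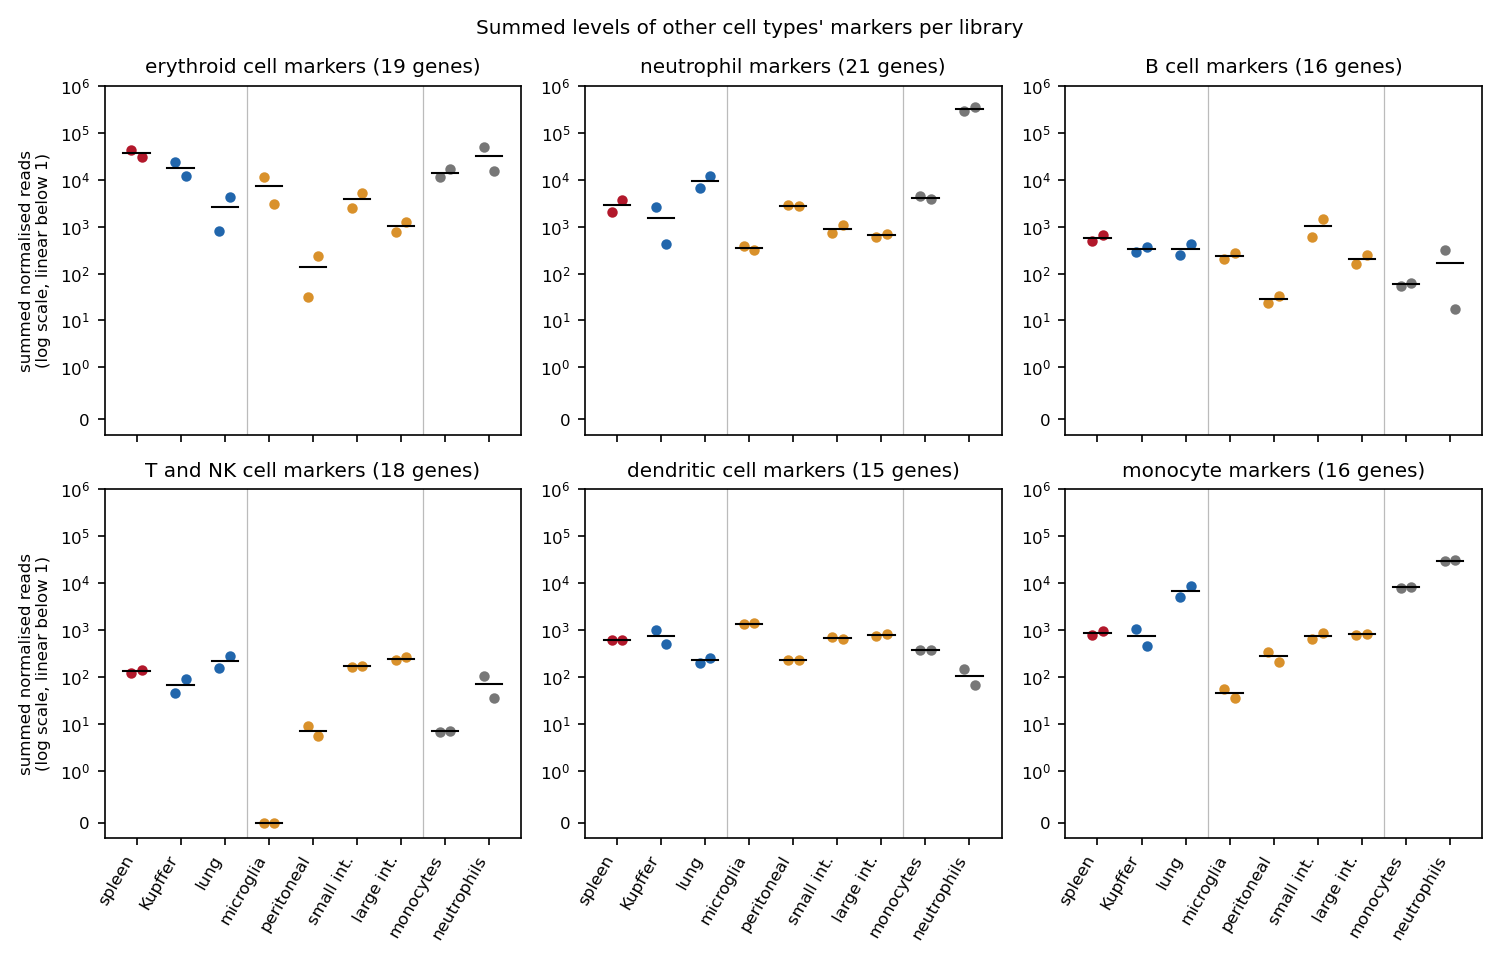
Summed levels of the marker genes of 6 other cell types in each library, as normalised reads on a log axis that is linear below 1; points are libraries and bars the mean of 2. The erythroid sum of the spleen, 31124 to 42290, lies above all other macrophage libraries, while its neutrophil sum lies below those of the lung.

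Of 35 heme and iron genes tested, 14 rose and 5 fell in the pooled comparison, where 9.66% and 7.46% of all genes did, and 8 rose and 4 fell within experiment 2, where 5.74% and 4.87% did. Their summed level was 22262 to 24419 in the spleen and overlapped the 21463 to 23912 of the lung. The median log2 fold change was 0.87 and 0.35. Under every alternative 11 rose and 1 fell in the pooled comparison, and 3 rose and 1 fell within experiment 2. Along the route that heme takes, Cd163, the receptor for haemoglobin bound to haptoglobin, was at 338 and 228 in the spleen, at 410 and 297 in Kupffer cells and at 5.69 and 0 in the lung. The spleen and Kupffer values of Cd163 overlapped. Slc48a1, which carries heme out of the phagolysosome, stood at 351 and 413 in the spleen and at 12.2, 77.6 and 177 as lowest, median and highest of the others, with no overlap. It rose by 2.50 ± 0.39 in the pooled comparison (limma, adjusted p = 0.000157), and its log2 fold change within experiment 2 was 1.63 ± 0.45 (adjusted p = 0.0228, and 0.116 and 0.21 without spleen replicate 1 and 2). The biliverdin reductase genes Blvra and Blvrb rose by 1.87 ± 0.30 and 2.16 ± 0.30 in the pooled comparison (limma, adjusted p = 0.000201 and 4.59e-05). Blvrb was at 1260 and 992 in the spleen, which overlapped 1445 and 607 in Kupffer cells, and Blvra at 396 and 460, which overlapped 362 and 449 in the lung. Within experiment 2 their log2 fold changes were 0.72 ± 0.34 for Blvra, which did not pass, and 1.71 ± 0.34 for Blvrb (limma, adjusted p = 0.199 and 0.00268, the latter 0.0664 without spleen replicate 1).

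For iron itself, Slc40a1, which encodes ferroportin, was at 1037 and 793 in the spleen, at 962 and 1112 in Kupffer cells and at 4.42 and 4.43 in the lung. Spleen and Kupffer values overlapped, with a log2 fold change of -0.19 ± 0.60 between them (limma, adjusted p = 0.929). Slc11a1, which moves iron and other divalent metals across the phagosome membrane, was at 1485 and 1340 in the spleen, at 1168 and 1243 in Kupffer cells and at 29.7 and 12.2 in the lung. It was above all 12 other libraries and rose within experiment 2 by 3.18 ± 0.26 (limma, adjusted p = 3.76e-07). Of the ferritin chains that store iron, Ftl1, the light chain, rose in the pooled comparison by 1.80 ± 0.26 and differed by 0.08 ± 0.30 within experiment 2 (limma, adjusted p = 8.42e-05 and 0.913). Its levels were 5338 and 7824 in the spleen and 6936 and 10789 in the lung. Fth1, the heavy chain, was at 3949 and 3587 in the spleen and 1001 to 10352 in the others, with log2 fold changes of -0.07 ± 0.25 and -0.69 ± 0.28 (adjusted p = 0.885 and 0.138). Trf, the plasma iron carrier transferrin, was at 1730 and 1827 in the spleen, above the 1302 of the highest other library, and rose by 1.75 ± 0.25 pooled and 1.09 ± 0.29 within experiment 2 (limma, adjusted p = 6.59e-05 and 0.018, the latter 0.11 and 0.162 without spleen replicate 1 and 2). The transferrin receptor Tfrc was low throughout, at 16.9 and 11.7 in the spleen and 0 to 26.0 in the others.

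Among regulators, Nfe2l2, which encodes the oxidative stress factor Nrf2, fell in both comparisons. It was at 12.96 and 13.1 in the spleen and 62.4, 134 and 275 as lowest, median and highest of the other 12. Both spleen values lay below all others, and it fell by 3.12 ± 0.30 in the pooled comparison and by 2.77 ± 0.34 within experiment 2 (limma, adjusted p = 9.1e-07 and 3.15e-05), under every alternative tried. Keap1, which targets Nrf2 for degradation, rose by 2.01 ± 0.23 in the pooled comparison and differed by 0.72 ± 0.26 within experiment 2 (limma, adjusted p = 4.54e-06 and 0.0812). Gclm, a subunit of the enzyme that starts glutathione synthesis, was at 238 and 203 in the spleen and at most 130 elsewhere, and rose by 2.22 ± 0.30 pooled and 1.28 ± 0.35 within experiment 2 (limma, adjusted p = 4.09e-05 and 0.0208, the latter 0.168 and 0.113 without spleen replicate 1 and 2). Bach1, the heme-responsive repressor, was at 17.9 and 29.2 in the spleen and 12.97 to 77.1 in the others, and did not pass in either comparison. Nqo1, Steap4 and the hepcidin gene Hamp were listed at 0 in both spleen libraries. The erythroid markers moved in the same direction as this group, and their part in it was not tested.

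**Figure D3:**
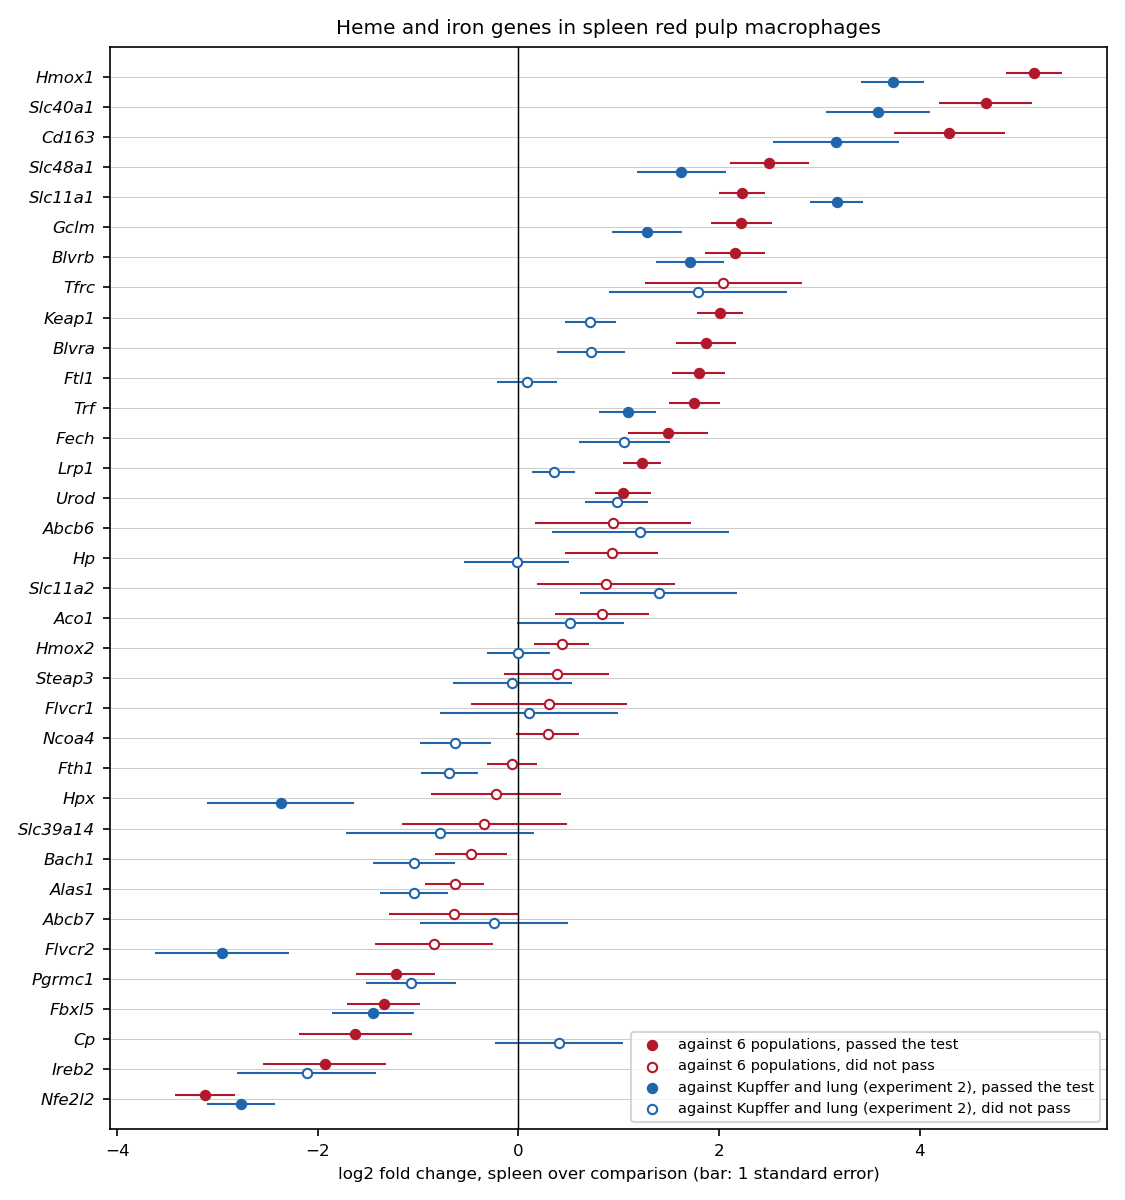
Log2 fold changes of the 35 heme and iron genes tested, in the pooled comparison (red) and within experiment 2 (blue), with bars of 1 standard error and filled points for genes that passed the test. Hmox1, Slc40a1 and Cd163 are at the top in the pooled comparison and Nfe2l2 is at the bottom in the pooled comparison.

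Of 27 genes of apoptotic cell and erythrocyte clearance, 12 rose and 3 fell in the pooled comparison, beside 9.66% and 7.46% of all genes. Within experiment 2, 5 rose and 4 fell, beside 5.74% and 4.87% of all genes. The median log2 fold change was 0.70 and 0.35. Their summed level was 8390 to 8743 in the spleen, below the 15227 to 20008 of Kupffer cells. Under every alternative 7 rose and 2 fell in the pooled comparison, and 0 rose and 3 fell within experiment 2. Axl, a receptor tyrosine kinase for phosphatidylserine bridged by Gas6, was at 2095 and 1683 in the spleen and 45.1, 587 and 1243 as lowest, median and highest of the others. Its relative Mertk was at 1422 and 1592, against 50.7, 362 and 1164. Neither gene overlapped with the others, and both rose in the pooled comparison by 2.60 ± 0.22 and 2.38 ± 0.27 (limma, adjusted p = 2.23e-07 and 5.43e-06). Within experiment 2 Axl differed by 0.85 ± 0.25, short of the fold required, and Mertk by 1.32 ± 0.31 (limma, adjusted p = 0.0295 and 0.00886, the latter 0.0665 and 0.12 without spleen replicate 1 and 2). The bridging protein Pros1, or protein S, fell: it was at 0 and 1.46 in the spleen and 6.24 to 130 in the others, with no overlap. Pros1 fell by 3.74 ± 0.62 within experiment 2 (limma, adjusted p = 0.000668). Gas6, the other bridging protein, was at 32.9 and 23.4 in the spleen and 0 to 148 in the others.

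Stab2, or stabilin 2, an endocytic receptor that also binds phosphatidylserine, was at 412 and 533 in the spleen and 200 and 522 in Kupffer cells, and at no more than 6.95 in the other 10. Cd5l, a secreted scavenger protein of macrophages, was at 757 and 931 in the spleen, below the 3493 and 2662 of Kupffer cells and above the remaining 10 libraries. Sirpa, the receptor for the "do not eat me" signal CD47, was at 748 and 1012 in the spleen, within a range of 88.5 to 1020 in the others, and rose by 1.46 ± 0.23 in the pooled comparison and differed by 0.92 ± 0.26 within experiment 2, short of the fold required (limma, adjusted p = 0.000151 and 0.0256). The scavenger receptor Msr1 fell in both comparisons, from 178 and 126 in Kupffer cells and 18.3 and 24.4 in the lung to 18.9 and 14.6 in the spleen, with a log2 fold change of -2.28 ± 0.28 pooled and -1.71 ± 0.32 within experiment 2 (limma, adjusted p = 1.28e-05 and 0.00164). Timd4, a phosphatidylserine receptor, was at 34.9 and 46.7 in the spleen, 287 and 352 in Kupffer cells and 0 in both lung libraries, and did not pass in either comparison.

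The nuclear receptor LXR alpha, which senses oxysterols, is encoded by Nr1h3. It was at 736 and 783 in the spleen, 1065 and 929 in Kupffer cells, 98.6 and 62.0 in the lung and 0 to 58.2 in the 8 libraries of experiment 1. Nr1h3 rose by 4.70 ± 0.50 in the pooled comparison (limma, adjusted p = 2.48e-06), while its log2 fold change within experiment 2 was 1.44 ± 0.56 (adjusted p = 0.116). Its partner Rxra was at 713 and 684 and rose by 1.64 ± 0.20 in the pooled comparison and differed by 0.37 ± 0.23 within experiment 2 (limma, adjusted p = 1.44e-05 and 0.358). Of the 18 genes of the LXR list, 5 rose and none fell in the pooled comparison, where 9.66% and 7.46% of all genes did, and 3 rose and 2 fell within experiment 2, where 5.74% and 4.87% did. The median log2 fold change was 0.32 and 0.23. Under every alternative 3 rose in the pooled comparison and 0 within experiment 2. The targets of LXR were divided. Srebf1, the factor that drives lipid synthesis, was at 137 and 177 in the spleen and 18.5 to 82.2 in the others, with no overlap, and rose by 1.904 ± 0.399 pooled and 1.59 ± 0.45 within experiment 2 (limma, adjusted p = 0.00228 and 0.0277; without spleen replicate 2 they were 0.085 and 0.256, and without replicate 1 the latter was 0.111). Others did not pass in either comparison: the cholesterol exporter Abca1, at 28.9 and 20.5 in the spleen and 2.53 to 152 in the others, and Mylip, at 39.9 and 27.8 and 14.04 to 264. Apoe, the apolipoprotein, was at 2828 and 4071 in the spleen and 149 to 13447 in the others, and its log2 fold change was 0.42 ± 0.27 pooled and 1.55 ± 0.31 within experiment 2 (limma, adjusted p = 0.298 and 0.00276, the latter 0.0958 without spleen replicate 2).

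Of 51 transcription factors of myeloid cells and tissue macrophages, 13 rose and 19 fell in the pooled comparison, beside 9.66% and 7.46% of all genes. Within experiment 2, 8 rose and 13 fell, beside 5.74% and 4.87% of all genes. Under every alternative the counts of the list were 8 and 4, and 5 and 5. Pou2f2, or Oct-2, a POU-domain factor known from B cells, was at 6192 and 6949 normalised reads in the spleen, and at 193, 674 and 3500 as lowest, median and highest of the others. The highest was a Kupffer library, and the groups did not overlap. Pou2f2 rose by 3.14 ± 0.24 in the pooled comparison and by 3.18 ± 0.28 within experiment 2 (limma, adjusted p = 1.01e-07 and 7.37e-07). Ms4a1, a marker of B cells, was at 32.9 and 30.7 in the spleen. Irf8, a factor of the mononuclear phagocyte lineage, was at 757 and 707 in the spleen and 61.7, 204 and 371 in the others, again with no overlap, and rose by 1.95 ± 0.37 within experiment 2 (limma, adjusted p = 0.00183).

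Pparg, the factor that alveolar macrophages require, was at 144 and 130 in the spleen, 167 and 112 in the lung, 12.5 and 14.1 in Kupffer cells and at no more than 14.1 in experiment 1, where microglia and peritoneal macrophages were listed at 0. It rose by 4.11 ± 0.55 in the pooled comparison and differed by -0.00 ± 0.72 from the lung alone (limma, adjusted p = 3.16e-05 and 1.00). Spi1, which encodes the lineage factor PU.1 related to Spi-C, was at 235 and 222 in the spleen and 187 to 625 in the others, and did not pass in either comparison. Several factors fell. Klf2, a Krueppel-like factor, was at 40.9 and 65.7 in the spleen and 69.2, 212 and 1619 in the others. Cebpa, a factor of myeloid differentiation, was at 42.9 and 35.1 against 90.7, 156 and 274, and Egr1, an immediate early factor, at 5.98 and 2.92 against 12.6, 103 and 319. For these 3 genes the spleen libraries lay below all others, and Klf2 and Cebpa fell by 1.98 ± 0.29 and 2.39 ± 0.29 within experiment 2 (limma, adjusted p = 0.00018 and 3e-05).

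Of 28 interferon-stimulated genes, which type I interferon induces through a complex that holds Stat2 and Irf9, 10 rose and none fell in the pooled comparison, and 6 rose and none fell within experiment 2. Over all genes 9.66% and 5.74% rose, and, without the fold required, 3956 and 2899 had an unadjusted p below 0.05 in either direction. The median log2 fold change of the list was 1.05 and 0.64. Summed over the list, the level was 4669 to 4682 in the spleen, below the 6429 to 8360 of Kupffer cells and above the 603 to 854 of the lung. In monocytes it was 3477 to 3792 and in neutrophils 4339 to 4463. Under every alternative 5 and 3 rose. Rsad2, the antiviral protein viperin, was at 414 and 368 in the spleen and 900 and 565 in Kupffer cells, and Irf7, the factor that amplifies the response, at 910 and 974 against 1883 and 1208. In both genes the spleen lay below Kupffer cells and above the other 10 libraries. Isg15, a ubiquitin-like modifier, was at 805 and 887 in the spleen, between the 1531 and 711 of Kupffer cells. Ifit1, Mx1 and Usp18 did not pass in either comparison. Stat2, Ifit3 and Oas3 rose in the pooled comparison, with log2 fold changes of 1.31 ± 0.38, 1.64 ± 0.41 and 1.68 ± 0.49 (limma, adjusted p = 0.0191, 0.00883 and 0.0198). Without spleen replicate 1 their adjusted p was 0.0831, 0.233 and 0.127, and without replicate 2 it was 0.26 for Stat2 and 0.168 for Oas3.

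Promoter sequence of genes that rose together is shown for 4 of them as 60 bases of the RefSeq promoter on GRCm38.p6, with all matches to the core of the interferon-stimulated response element in capitals, 5′ to 3′ on the strand of the gene. The windows were Rsad2 at chr12:26456538-26456597 on the minus strand, Isg15 at chr4:156200862-156200921 on the minus strand, Ifit3 at chr19:34583382-34583441 on the plus strand and Stat2 at chr10:128270251-128270310 on the plus strand.
Rsad2: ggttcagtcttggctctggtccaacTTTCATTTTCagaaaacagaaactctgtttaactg
Isg15: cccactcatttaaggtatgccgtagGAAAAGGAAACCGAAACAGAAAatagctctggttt
Ifit3: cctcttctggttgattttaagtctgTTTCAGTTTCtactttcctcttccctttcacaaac
Stat2: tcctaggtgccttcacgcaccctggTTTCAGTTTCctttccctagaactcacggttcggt
The motif, GAAA and GAAA with 2 bases of any kind between them, which reads TTTC and TTTC on the other strand, was searched on both strands of windows of 300 bases, from 250 before to 50 after the start. Of all 32851 windows 3.44% held it. Of the 20 interferon-stimulated genes with a window 11 held it, and of the 7 that rose in the pooled comparison 5. Rsad2, Isg15, Ifit3, Stat2 and Oas3 held a match, and Irf7 and Xaf1 did not within this window. A match is a description of these letters and not of a bound site, and Ifit1, which did not pass, held one as well.

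Of 25 Fc receptor and complement genes, 9 rose and 6 fell in the pooled comparison, beside 9.66% and 7.46% of all genes. Within experiment 2, 6 rose and 5 fell, beside 5.74% and 4.87% of all genes. Under every alternative 4 rose and 5 fell, and 5 rose and 1 fell. C6, a part of the membrane attack complex, was at 195 and 169 in the spleen and 211 and 187 in Kupffer cells, and these values overlapped. Its log2 fold change within experiment 2, against the mean of Kupffer cells and lung macrophages, was 3.46 ± 0.63 (limma, adjusted p = 0.00142). That value does not describe a difference from Kupffer cells. Cfp, or properdin, which stabilises the alternative pathway convertase, was at 2862 and 2707 in the spleen, above the 2678 and 1544 of Kupffer cells and all other libraries. It rose by 2.99 ± 0.23 pooled and 2.01 ± 0.26 within experiment 2 (limma, adjusted p = 9.68e-08 and 5.49e-05). C2, a protease of the classical pathway, was at 75.7 and 83.3 against at most 45.4 elsewhere. C1qa, a chain of the recognition molecule C1q, was at 5149 and 6204 in the spleen, within the 27.7 to 9807 of the others. Its pooled log2 fold change of 1.24 ± 0.34 (limma, adjusted p = 0.0143) rested on the lung, at 80.9 and 27.7, and the adjusted p was 0.848 with the lung left out, and 0.0884 and 0.209 without spleen replicate 1 and 2.

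C3ar1, the receptor for C3a, was at 3.99 and 4.38 in the spleen, at 146 and 141 in Kupffer cells and at 1.26 and 0 in the lung, and fell by 4.18 ± 0.45 in the pooled comparison, with a log2 fold change of -1.53 ± 0.51 within experiment 2 (limma, adjusted p = 2.76e-06 and 0.0583). C5ar1, the receptor for C5a, was listed at 0 in both spleen libraries, where 3 reads would be 2.99 and 4.38 normalised reads. Its median over the others was 17.8, and it passed as lower in the pooled comparison. Fcgr2b, the inhibitory Fc gamma receptor, was at 5.98 and 0 in the spleen and 8.32, 134 and 277 in the others, with no overlap, and fell by 3.17 ± 0.54 within experiment 2 (limma, adjusted p = 0.00083). The activating receptor Fcgr1, at 337 and 254, did not pass in either comparison. Fcgrt, the neonatal Fc receptor, which recycles immunoglobulin G, was at 686 and 694 in the spleen and 76.9, 262 and 668 in the others. It rose by 1.46 ± 0.25 in the pooled comparison and differed by 0.46 ± 0.28 within experiment 2 (limma, adjusted p = 0.000404 and 0.345). Itgam, or CD11b, a chain of complement receptor 3, was at 12.0 and 8.76 in the spleen and as low in the lung, at 12.0 and 4.43. The population means of Itgam in experiment 1 ran from 110 in the large intestine to 584 in peritoneal macrophages.

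Chemokines were low in the spleen as a group. Of 27 cytokines and chemokines, 3 rose and 14 fell in the pooled comparison, beside 9.66% and 7.46% of all genes. Within experiment 2, 2 rose and 9 fell, beside 5.74% and 4.87% of all genes. The median log2 fold change was -1.69 and -1.54, against -0.02 and 0.02 over all genes. Under every alternative 1 rose and 6 fell in the pooled comparison, and 0 rose and 3 fell within experiment 2. The summed level of the 28 listed was 900 in each spleen library and 1884 to 7050 in the others, with no overlap. Ccl6 was at 140 and 162 in the spleen, at 1480 and 587 in Kupffer cells and at 4249 and 5103 in the lung, and fell by 3.78 ± 0.29 within experiment 2 (limma, adjusted p = 1.67e-07). Ccl3, which attracts monocytes through Ccr1, was at 1.99 and 1.46 in the spleen and 1.26, 53.7 and 190 in the others, and fell by 3.14 ± 0.45 within experiment 2 (limma, adjusted p = 0.000136). Il1rn, the antagonist of the interleukin 1 receptor, was at 6.98 and 2.92 in the spleen, at 48.9 and 34.3 in Kupffer cells and at 182 and 203 in the lung. It fell in both comparisons. This receptor of Ccl3 was low as well. Ccr1 was at 0 and 1.46 in the spleen and 1.04 and 0 in Kupffer cells, with a median of 100 over the 12 others. It fell by 4.90 ± 0.41 in the pooled comparison and by 2.30 ± 0.46 within experiment 2 (limma, adjusted p = 2.14e-07 and 0.00296). The spleen and Kupffer values overlapped, and with voom weights Ccr1 did not pass within experiment 2 (limma, adjusted p = 0.0838). Without spleen replicate 1 Ccr1 did not pass there either.

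Il18, an interleukin that natural killer and T cells respond to, went the other way, at 384 and 254 in the spleen, 378 and 329 in the lung and 101 and 90.8 in Kupffer cells. It rose by 2.12 ± 0.32 in the pooled comparison and differed by 0.76 ± 0.36 within experiment 2 (limma, adjusted p = 9.98e-05 and 0.204). Cxcl12, the ligand of Cxcr4 and a product of stromal cells, was at 30.9 and 64.3 in the spleen and at most 16.4 in the others, and its adjusted p rose to 0.0536 in the pooled comparison and 0.0618 within experiment 2 without spleen replicate 2. Immediate early and heat shock genes, which cell isolation can induce, moved in the direction of the chemokines. Of 20 tested, none rose and 11 fell in the pooled comparison, where 7.46% of all genes fell. Within experiment 2, 8 fell, where 4.87% of all genes fell, and under every alternative 2 and 0 fell. Their summed level was 1673 to 2243 in the spleen and 2170 to 9292 in the other macrophages. Hspa1a was at 8.97 and 14.6 in the spleen and 5.69, 245 and 831 in the others. The part of these genes in the chemokine result was not tested.

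**Figure D4:**
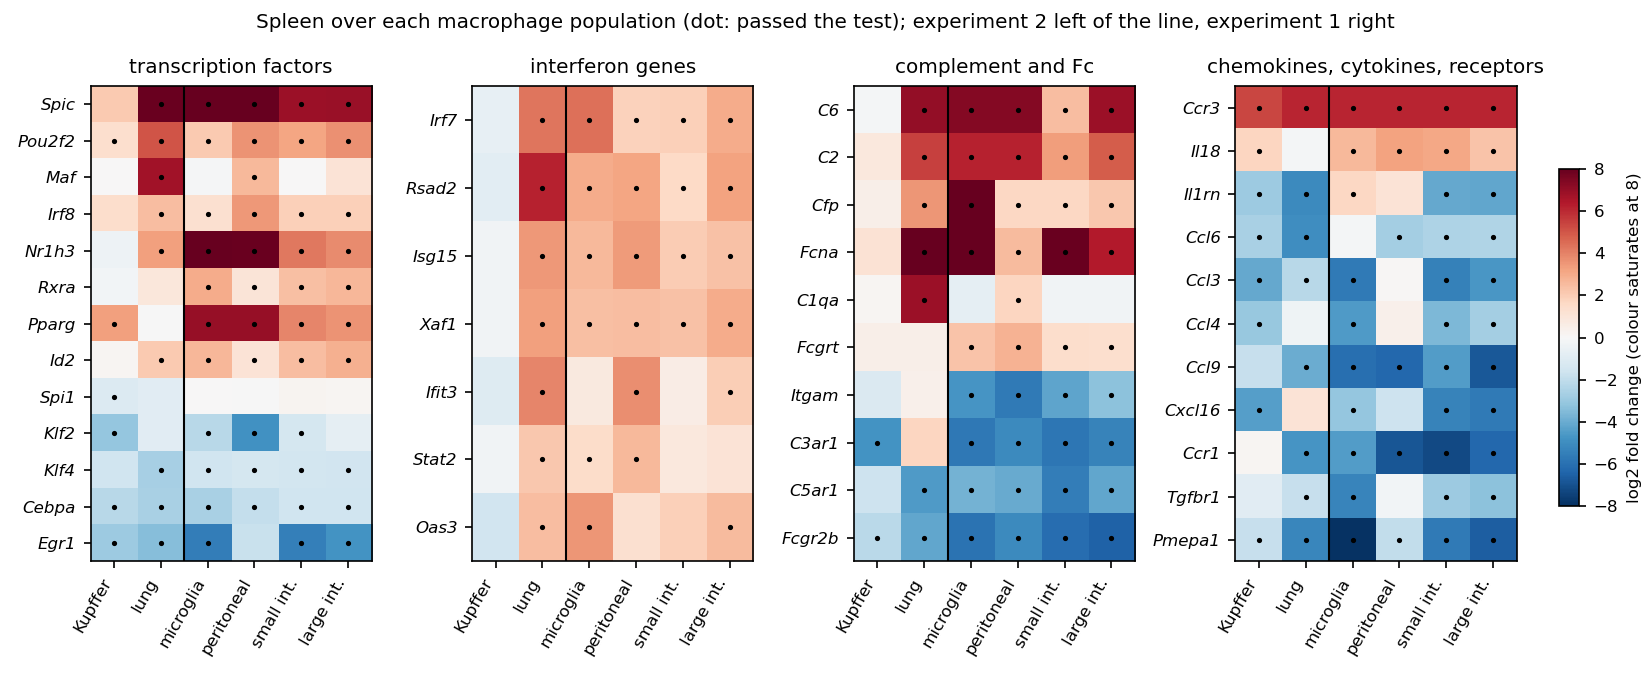
Log2 fold change of the spleen over each of the 6 macrophage populations (columns) for 41 genes (rows), red for higher and blue for lower in the spleen, with a dot where the difference passed the test. The Kupffer column is pale for most interferon genes and for C6, C2 and Cfp, and blue for Cxcl16 and C3ar1.

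Of 24 tested genes of TGF-beta signalling, 2 rose and 4 fell in the pooled comparison, beside 9.66% and 7.46% of all genes, and 1 rose and 2 fell within experiment 2, beside 5.74% and 4.87%. Under every alternative 0 rose and 1 fell, and 1 rose and 0 fell. Tgif2, a repressor of the pathway, rose by 1.56 ± 0.31 pooled and 2.06 ± 0.35 within experiment 2, and Acvrl1, a type I receptor, rose by 1.58 ± 0.26 pooled and differed by 0.32 ± 0.30 within experiment 2 (limma, adjusted p = 0.00129, 0.0007, 0.000299 and 0.576). Without spleen replicate 2 the pooled adjusted p of Tgif2 was 0.0523, and with peritoneal macrophages left out that of Acvrl1 was 0.376. Tgfbr1, the type I receptor, was at 44.8 and 46.7 in the spleen, 83.2 and 87.8 in Kupffer cells, 158 and 182 in the lung and 1862 on average in microglia. It fell by 2.41 ± 0.23 in the pooled comparison and by 1.37 ± 0.27 within experiment 2 (limma, adjusted p = 1.01e-06 and 0.00215). Pmepa1, a TGF-beta target that damps the pathway, was at 6.98 and 14.6 in the spleen and 29.0, 486 and 2675 in the others, with no overlap, and fell by 3.53 ± 0.34 within experiment 2 (limma, adjusted p = 1.84e-06). Adhesion genes were also divided, with 6 higher and 5 lower of 27 in the pooled comparison and 5 higher and 3 lower within experiment 2; 4 and 1, and 3 and 0, were so under every alternative. Beside Vcam1 and Itgad, Itga9, an integrin chain that binds tenascin and Vcam1, was at 184 and 200 in the spleen and at most 172 in the others, and rose by 3.73 ± 0.49 within experiment 2 (limma, adjusted p = 6.83e-05). Cd44, the hyaluronan receptor, was at 418 and 371 in the spleen and 769 and 661 in the lung, and rose in the pooled comparison alone. The integrin chain Itga4, which pairs to bind Vcam1, did not pass in either comparison. Itgal, another chain, differed by -0.50 ± 0.61 pooled and fell by 2.70 ± 0.69 within experiment 2 (limma, adjusted p = 0.612 and 0.0152, the latter 0.118 and 0.107 without spleen replicate 1 and 2).

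The genes lowest in the spleen relative to the others had low levels in both spleen libraries. Plxdc2, a membrane protein related to plexins, was at 5.98 and 0 in the spleen and 7.28, 138 and 930 in the others. Trem2, a lipid-sensing receptor of microglia and other macrophages, was at 4.98 and 2.92 against 13.1, 48.9 and 1106. Both were below all 12 libraries. Ltc4s, the leukotriene C4 synthase, was at 10.96 and 2.92 against 31.8 to 629, Nupr1, a stress-response protein, at 0.997 and 11.7 against 36.3 to 344, and the cell cycle inhibitor Cdkn1a at 2.99 and 7.30 against 26.0 to 349. Within experiment 2 these 3 fell by 4.60 ± 0.49, 3.56 ± 0.54 and 4.22 ± 0.38 (limma, adjusted p = 7.03e-06, 0.000275 and 8.87e-07). The endocytic adaptor Dab2 fell by 5.03 ± 0.63 within experiment 2 (limma, adjusted p = 3.97e-05), from 48.9 and 90.8 in Kupffer cells and 120 and 126 in the lung to 5.98 and 0. Lyz2, or lysozyme, was at 412 and 634 in the spleen, at 1358 and 1013 in Kupffer cells and at 9651 and 9470 in the lung, and fell in both comparisons, while microglia had 137 on average.

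**Figure D5:**
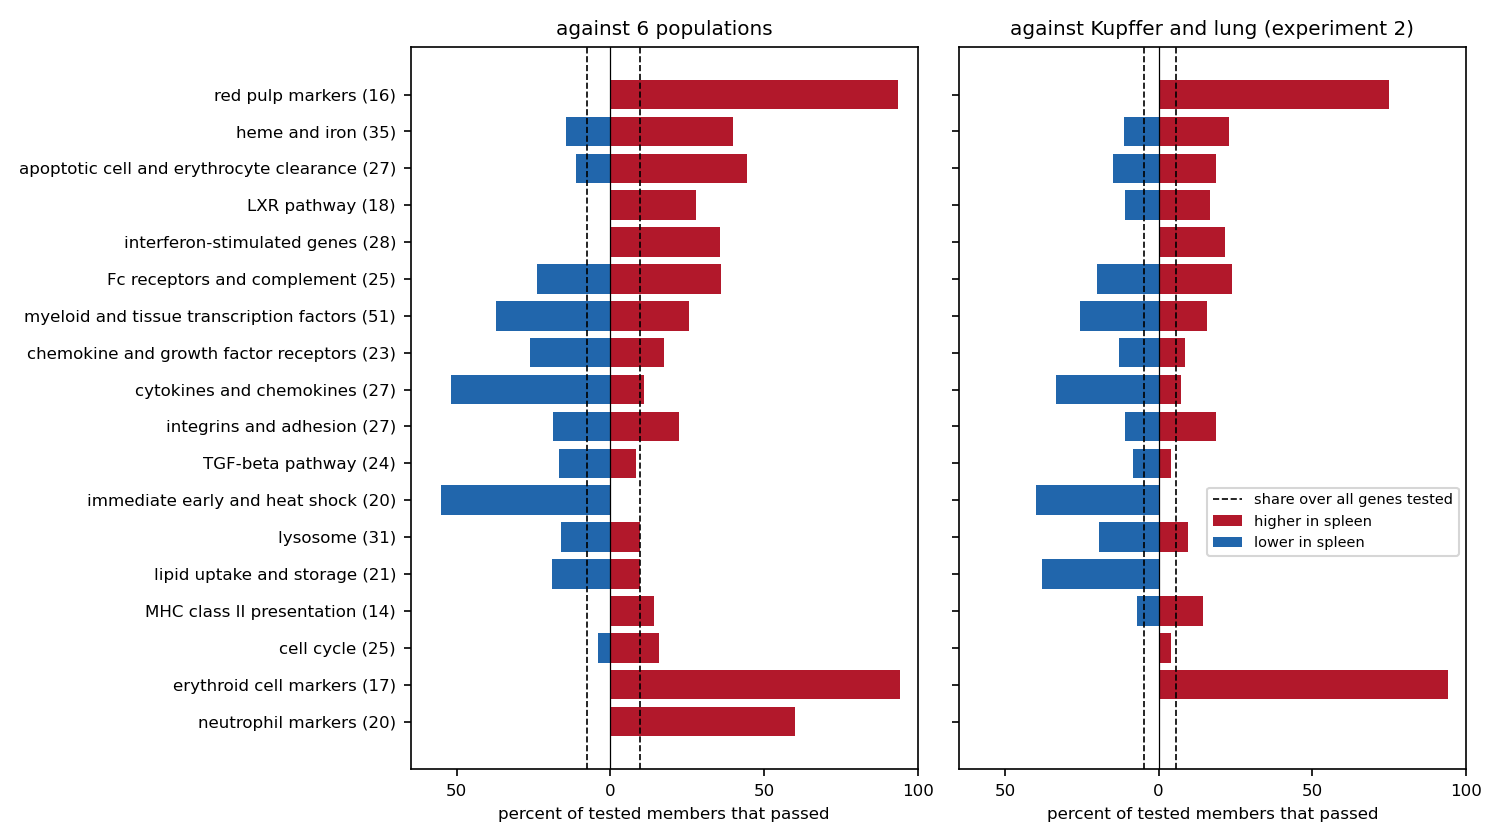
Percent of tested members of 18 gene lists that were higher (red, to the right) or lower (blue, to the left) in the spleen, in the pooled comparison and within experiment 2; dashed lines are the percent over all 11998 genes and numbers in brackets the members tested. Erythroid markers and red pulp markers have the longest bars to the right in both panels, and immediate early genes and cytokines among the longest to the left.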

How the data were processed

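RNA of sorted cells was measured in 18 libraries of 9 populations, 2 each. The authors deposited 1 table of signal values, here called normalised reads, with a row per RefSeq transcript; they are read counts divided by a factor for each library, whose origin the sources used here do not give. TopHat and the build mm9 are named in the submitters' processing notes. Most values (86.6% to 88.9% of those above 0) lay within 0.01 of a whole number of reads, and the rest did not, so no count test was used. The worth of 1 read gave the reads per library. The 20814 transcripts made 16194 genes, each taken from its transcript with the highest mean. Genes with at least 5.53 normalised reads in 2 libraries, 11998 in all, were tested with limma 3.58.1 (mean-variance trend, R 4.3.3) on log2(value + 1.11), with populations as groups. Levels were compared between libraries of 1 gene, not between genes. The procedure was tested on simulated data. Genes were named by ranks within each comparison, from the gene lists and for their known function. The members and the lists were chosen with earlier results of these data known. Under every alternative means all settings of the closing section except the populations of experiment 2 alone, which stand as their own comparison. Some genes of the lists are not reported here by name.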

Additional observations from a re-analysis of the deposited data

How the results depend on the processing

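The alternatives were the added pseudocount, the filter on low values, equal library totals, quantile normalization, voom weights, the sum over transcripts, the 14 macrophage libraries alone, a replicate block, each library left out in turn, and each comparison population left out in turn. The pooled comparison called 2054 genes, 1273 against the populations of experiment 2 alone, and 846 to 2188 with 1 library left out. Within experiment 2, 1273 were called and 504 to 1350 with 1 library left out. The fewest were called without either spleen library, when the lone spleen library was assumed to vary like the other populations. Voom weights gave 2176 and 1357 genes. Every other alternative gave a count within 1.5 times. Against experiment 2 alone the values of Cd44, Clec4f, Ear2 and Lpl turned to -0.036, -1.94, -1.20 and -1.64. Among the values of the genes named, no other turned where it passed in the main fit or in the alternative. Of these values, 6955 kept their side of the threshold, 207 no longer passed and 46 newly passed. Values that passed in neither could change sign, as Mx1 did within experiment 2, from -0.338 to 0.799. With the replicate number as a replicate block, 1699 and 876 genes were called. The labels do not state that libraries with the same number were paired. Deviations of same-numbered libraries correlated across genes by 0.0055 for spleen and microglia and -0.0048 for spleen and peritoneal macrophages. For microglia and peritoneal macrophages the correlation was 0.0024. The pairs with the spleen lay across experiments and no pair within experiment 2 was checked, so these values cannot decide whether its libraries were paired. The block serves as an alternative only. Depth limits genes listed at 0 in the spleen, where 3 reads correspond to 2.99 and 4.38 normalised reads, counting error only.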

Other observations

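Of 31 lysosome genes 3 rose and 5 fell in the pooled comparison, where 9.66% and 7.46% of all genes did, and 3 rose and 6 fell within experiment 2, where 5.74% and 4.87% did. Under every alternative 2 rose and 3 fell, and 1 rose and 1 fell. Ctse, the aspartic protease cathepsin E, was at 107 and 27.8 normalised reads in the spleen, 0 in both Kupffer libraries and at most 19.2 in the others. Its mean in neutrophils was 59.2. Lamp2, a lysosomal membrane protein, was at 21.9 and 29.2 against 28.8 to 170, and fell by 1.97 ± 0.27 pooled and 1.45 ± 0.30 within experiment 2 (limma, adjusted p = 3.69e-05 and 0.00393, the latter 0.079 without spleen replicate 1 and 0.0901 with transcripts summed). Of 14 genes of MHC class II presentation 2 rose and none fell in the pooled comparison, and 2 rose and 1 fell within experiment 2. Of 25 cell cycle genes 4 rose and 1 fell, and 1 and 0 within experiment 2, at a summed level of 778 to 840 in the spleen and 291 to 876 in the others.

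Of 21 lipid genes tested 2 rose and 4 fell in the pooled comparison, where 9.66% and 7.46% of all genes did. Within experiment 2 none rose and 8 fell, where 5.74% and 4.87% of all genes did. Plin2, which coats lipid droplets, was at 171 and 124 in the spleen, at 278 and 250 in Kupffer cells and at 930 and 917 in the lung, and fell by 1.75 ± 0.25 within experiment 2 (limma, adjusted p = 0.000142). Lpl, or lipoprotein lipase, was at 475 and 422, against 941 and 983 in Kupffer cells and 1914 and 2177 in the lung. The spleen lay below both populations for these genes, while the pooled log2 fold change was -0.49 ± 0.22 for Plin2 and 0.87 ± 0.25 for Lpl (limma, adjusted p = 0.124 and 0.0191), neither past the threshold of size and p together.

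Of 16 Kupffer cell markers, 9 rose in the pooled comparison, where 9.66% of all genes rose and 7.46% fell. Within experiment 2, 4 rose and 5 fell, where 5.74% and 4.87% of all genes did. Clec4f, a lectin of Kupffer cells, was at 41.9 and 101 in the spleen and 9598 and 6269 in Kupffer cells. Of 17 lung macrophage markers 3 rose and 1 fell in the pooled comparison, and 13 fell within experiment 2. Microglia markers fell for 13 of 16 in the pooled comparison and 2 within experiment 2, and peritoneal markers for 9 of 17 and 3.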
